A study of Mus musculus with 4 samples.

Results

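Cluster 6 was a Ly6C-high monocyte cluster among CD11b+ cells of the mouse spleen, and its members were all cells that carried the number 6 in the RNA clustering deposited with the cells. It held 405 of the 6075 cells in the authors' bundle of monocytes, macrophages and dendritic cells (DCs), and 405 of 11631 cells in all. In steady state 297 cells belonged to it, 13.9% of 2135 bundle cells (exact 95% interval 12.5 to 15.5%). After GM-CSF treatment 108 cells belonged to it, 2.74% of 3940 bundle cells (2.25 to 3.30%). The working name of the cluster called its cells cycling. The data carried that word poorly in steady state and for some of the cells after GM-CSF, so it is called cluster 6 here.

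The cells were CD11b+ splenocytes of mice, isolated by flow sorting and profiled by CITE-seq, which reads the RNA of each cell together with DNA-tagged antibodies against surface proteins. The steady-state group was 1 library from untreated mice. The GM-CSF group was 1 library from mice given 3 daily injections of 10 µg of the cytokine under the skin, with cells taken 24 hours after the last. Dose, route and time follow the methods. The labels name neither the strain nor the number of mice behind a library. With 1 library per condition there was no replicate, treatment and library cannot be told apart, and no test was made between them. Intervals cover counting error only.

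Classical monocytes leave the bone marrow through the chemokine receptor CCR2, carry the surface protein Ly6C and circulate in the blood and spleen. They can turn into non-classical monocytes, which lose Ly6C and survive through the nuclear receptor Nr4a1, or into macrophages and monocyte-derived DCs, which present antigen on MHC class II. GM-CSF signals through a receptor of the chains Csf2ra and Csf2rb and drives growth and differentiation of myeloid cells. Dividing cells copy their DNA in S phase and segregate it after G2 phase in mitosis (M), and each step has its own gene set.

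Depth was similar in both libraries. Cluster 6 held 2198249 unique molecular identifiers (UMIs, each a captured RNA molecule) in steady state and 863357 after GM-CSF, with medians of 7360 and 7796 per cell. Levels are given as CPM, the UMIs of a gene summed over the cells of a cluster and scaled to a cluster total of 1000000 UMIs. For a gene without a UMI the upper limit, set at 3 counts, was 1.36 CPM in steady state and 3.47 CPM after GM-CSF. The median share of mitochondrial UMIs was 3.67% in steady state and 5.40% after GM-CSF. Scrublet called 2 doublets among the cluster 6 cells of each library, and they were kept. Of the cell barcodes, 8 occurred in both libraries and 1 of these lay in cluster 6. All 297 steady-state cells and 104 of the cells after GM-CSF came from the same parent cluster of the authors, and the other 4 came from another one.

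The Ly6C-high part of the name held in both libraries. Ly6c2 (chromosome 15, 75108158 to 75111970, minus strand, GRCm38) encodes the Ly6C protein. In steady state it stood at 1383 CPM (exact interval 1335 to 1433) in cluster 6, against 1248 CPM in cluster 5 and 822 CPM in cluster 2. Clusters 5 and 2 were chosen for comparison and are called the neighbours of cluster 6. Ly6c2 in cluster 6 ranked second of 14 clusters with at least 20 cells, after cluster 13 at 3012 CPM. After GM-CSF its level in cluster 6 was 573 CPM (524 to 626), the highest of 14 clusters, followed by cluster 15 at 506.5 CPM, and was 110 CPM in cluster 5 and 59.4 CPM in cluster 2. A Ly6c2 UMI was seen in 292 of 297 steady-state cells (98.3%) and 97 of 108 cells after GM-CSF (89.8%). B cells, which should lack the gene, had one in 9.18% of 196 cells at a median depth of 2976.5 UMIs in steady state, and in 11.4% of 79 cells at 2741 UMIs after GM-CSF. Reads of Ly6c2 and of its near-identical copy Ly6c1 may have been split between the genes, so the Ly6c2 level is uncertain to that extent.

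Ccr2 (chromosome 9, 124101950 to 124113557, plus strand, GRCm38), the receptor by which monocytes leave the marrow, was highest in cluster 6 in both libraries. Its level was 1826 CPM (1770 to 1883) in steady state, ahead of cluster 13 at 1230 CPM and cluster 7 at 1208 CPM. After GM-CSF it was 734 CPM (678 to 794), close to the 676 CPM of cluster 1. That value has a counting error of its own, so the order of these clusters after GM-CSF is not resolved. Cluster 5 had 966 CPM in steady state and 659 CPM after GM-CSF, and cluster 2 had 782 and 577 CPM. B cells showed a Ccr2 UMI in 6.63% of cells in steady state.

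**Figure D1:**
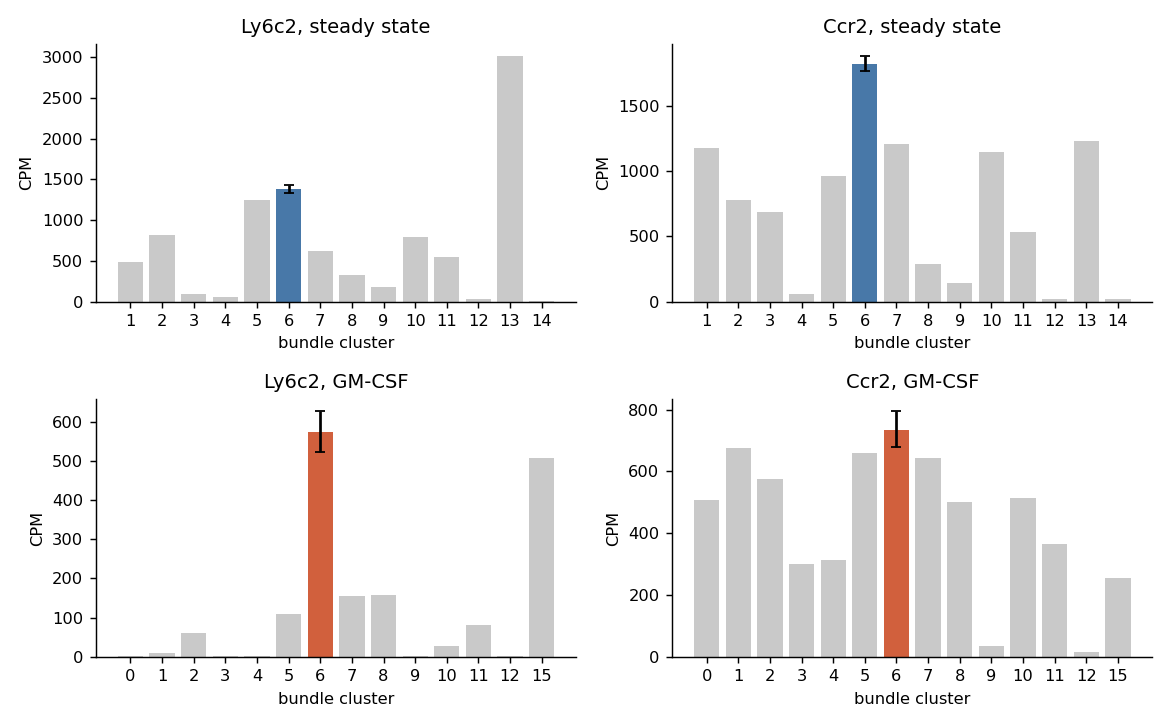
Levels of Ly6c2 and Ccr2 (CPM, bars from 0) in each bundle cluster with at least 20 cells, for steady state and GM-CSF. Cluster 6 is coloured and carries its exact 95% interval: Ccr2 stood highest there in both libraries (1826 and 734 CPM), and Ly6c2 was second to cluster 13 in steady state and highest after GM-CSF (573 CPM).

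Genes were compared by the ratio of their CPM, with 0.5 counts added to each sum, among genes with at least 50 UMIs in the pair of sums. A gene with few UMIs in 1 sum could pass only through the other. Counts of called list genes are therefore not a measure of a list. Because the clusters were drawn from the RNA of these cells, what sets cluster 6 apart from other clusters is a description. Against all other bundle cells, 135 of 9569 genes (1.41%) were at least 2-fold higher in cluster 6 in steady state and 878 (9.18%) at least 2-fold lower. After GM-CSF 468 of 10279 genes (4.55%) were higher and 1455 (14.2%) lower.

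F13a1 (chromosome 13, 36867178 to 37050244, minus strand, GRCm38), the A subunit of coagulation factor XIII, stood at 1228 CPM in cluster 6 and 275 CPM in the other bundle cells in steady state (ratio 4.46, interval 4.24 to 4.69). After GM-CSF it was 217 against 21.1 CPM (10.3, 8.67 to 12.2). Vcan, the matrix proteoglycan versican, was 247 against 51.4 CPM in steady state (4.82, 4.29 to 5.41) and 383 against 39.7 CPM after GM-CSF (9.66, 8.51 to 10.9). The clotting cofactor gene F5 was low in absolute level but as selective, with 50.9 against 10.5 CPM in steady state and 33.6 against 4.27 CPM after GM-CSF. Fn1, the matrix protein fibronectin, was 2780 against 669 CPM and 1290 against 212 CPM. Thbs1, the adhesive glycoprotein thrombospondin, had ratios of 3.33 and 2.93. These genes were picked by the smaller ratio of both libraries, so that they were high in each is how they were chosen.

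The other genes highest in cluster 6 were of mixed function. Prtn3, a serine protease of granules that is made early in myeloid development, was 18.2 against 4.55 CPM in steady state and 96.1 against 6.44 CPM after GM-CSF. Its latter level fell to 57.5 CPM without 6 cells described below. Gpx3, a secreted glutathione peroxidase, had ratios of 3.61 and 5.74. Lepr, the leptin receptor, had ratios of 3.96 and 3.33, and Itga1, an integrin that binds collagen, 3.72 and 3.45. AI839979, Ctdspl, Acot1, Dyrk3, C1rl and Plcb1 made up the rest of the leading 15 genes, with ratios between 3.18 and 4.56 in steady state and between 3.51 and 7.34 after GM-CSF. Below that rank, the classical monocyte marker Chil3, a secreted chitinase-like protein, had ratios of 3.03 and 8.97.

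Fewer genes set cluster 6 apart from cluster 5 than from cluster 2. In steady state 28 of 7554 genes (0.371%) were at least 2-fold higher in cluster 6 than in cluster 5, and 135 (1.79%) lower. After GM-CSF 62 of 4669 genes (1.33%) were higher and 118 (2.53%) lower. Of 17 classical monocyte markers above the minimum of UMIs, 2 were at least 2-fold higher in cluster 6 in steady state and none lower. The summed level of the 18 markers was 56638 CPM in cluster 6 and 45718 CPM in cluster 5. After GM-CSF 7 of 15 were higher and none lower.

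F13a1 again separated the pair, at 1228 against 612 CPM in steady state (2.01, 1.89 to 2.12) and 217 against 39.7 CPM after GM-CSF (5.46, 3.86 to 7.89). Vcan was 247 against 122 CPM in steady state (2.03, 1.79 to 2.32) and 383 against 169 CPM after GM-CSF (2.27, 1.88 to 2.75). The genes named here were likewise picked for being higher in each library. Slpi, an inhibitor of leukocyte proteases, was 221 against 114 CPM in steady state and 107 against 2.98 CPM after GM-CSF. Lcn2, an iron-sequestering protein, had ratios of 2.05 in steady state (1.22 to 3.48) and 35.9 after GM-CSF, where its level fell from 534 to 167.5 CPM without 6 cells rich in neutrophil genes. AI839979, Prtn3, Ctdspl, Mtus1 and Lyst, also among the leading 10, had ratios between 1.77 and 2.11 in steady state and between 1.83 and 6.92 after GM-CSF.

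Genes of antigen presentation were lower in cluster 6 than in cluster 5. H2-Aa, a chain of MHC class II, was 10.5 against 90.7 CPM in steady state (8.67-fold lower, 5.67 to 13.9) and 427 against 2113 CPM after GM-CSF (4.94-fold lower, 4.43 to 5.54). Cd74, the chaperone of MHC class II, was 121 against 438 CPM and 1400 against 5218 CPM. In the list of 10 MHC class II genes, 4 of 6 above the minimum were at least 2-fold lower in steady state, and 7 of 7 after GM-CSF. H2-Eb1 and H2-Ab1 were among the 10 lowest genes with them. Tppp3, a tubulin-binding protein, was 92.3 against 561 CPM in steady state and 237 against 695 CPM after GM-CSF. The others of the 10 lowest were Cyp51, Adrbk2, Lpp, Amz1 and Bcl2a1b, between 2.47- and 4.94-fold lower in steady state. Bcl2a1b has near-identical copies, so its counts are uncertain.

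Genes of non-classical monocytes were lower in cluster 6 than in cluster 5 in steady state, where 10 of 13 above the minimum were at least 2-fold lower and none higher. Their summed level was 1591 against 3494 CPM. Ace, a peptidase, was 19.1 against 176 CPM. Nr4a1, the receptor required by non-classical monocytes, was 270 against 635 CPM, and Spn (CD43) 70.1 against 233 CPM. Treml4 was 23.2 against 98.3 CPM. After GM-CSF only 1 of 10 such genes was at least 2-fold lower in cluster 6.

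Cluster 2 stood further away. In steady state 171 of 7045 genes (2.43%) were at least 2-fold higher in cluster 6 than in cluster 2 and 254 (3.61%) lower. After GM-CSF 167 of 5850 (2.85%) were higher and 288 (4.92%) lower. F13a1 was 6.37-fold higher in cluster 6 in steady state (5.75 to 7.08) and 22.6-fold higher after GM-CSF (14.1 to 38.4). Fn1 was 5.64- and 6.04-fold higher, and Vcan 5.62- and 9.06-fold. Serpinb1a, an inhibitor of granule proteases, was 3.88-fold higher in steady state and 25.3-fold after GM-CSF. Slpi, Ctdspl, Glipr2, AI839979 and Ndrg1 were also among the 10 highest genes, with ratios between 2.91 and 6.02 in steady state and between 3.27 and 10.1 after GM-CSF.

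Among the 10 genes lowest in cluster 6 against cluster 2 were 3 of the MHC class II list. Cxcl9, a chemokine that attracts T cells, had 0 UMIs in cluster 6 in either library against 157 and 160 in cluster 2, at least 52.8-fold and 23.2-fold lower. H2-Aa was 10.5 against 1221 CPM in steady state (117-fold lower, 77.6 to 185) and 427 against 3309 CPM after GM-CSF (7.74-fold). H2-Eb1 was 4.55 against 824 CPM in steady state and 263 against 2242 CPM after GM-CSF. The MHC class II list stood at 462 CPM in cluster 6 and 6905 CPM in cluster 2 in steady state, with 6 of 7 genes above the minimum at least 2-fold lower. Ciita, the regulator that switches these genes on, was 14.1-fold lower in steady state and 7.37-fold lower after GM-CSF. Slamf7, a leukocyte surface receptor, had 2 UMIs against 95 in steady state, and Slc12a2, an ion transporter, 4 against 149. Spic, a regulator of splenic macrophages, had 4 UMIs against 69, and Cxcl16, another chemokine, 6 against 66. Dnase1l3 and Serpina3g were the other genes of the 10 lowest, and Serpina3g has close copies that make its counts uncertain. Of 17 interferon response genes above the minimum, 8 were at least 2-fold lower in cluster 6 in steady state and none higher.

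Cell cycle phase had been assigned by the authors to each cell by scoring S and G2/M gene lists. In steady state 98 cluster 6 cells were called S and 57 G2/M, together 155 of 297 (52.2%, 46.3 to 58.0%). After GM-CSF 33 were called S and 20 G2/M, together 53 of 108 (49.1%, 39.3 to 58.9%). The shares were 16.5% in cluster 5 and 19.5% in cluster 2 in steady state, and 11.3% and 16.8% after GM-CSF. In cluster 8, 100% of cells were called S or G2/M in both libraries. The intervals of the cluster 6 shares overlapped between the libraries.

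The steady-state share differed between scorings, and the part of the gene set, of the integration and of the scoring in this was not tested. When all cells were scored again here with 42 S and 54 G2/M genes, a set that is not gene for gene that of the deposited calls, the share was 7.41% (22 of 297) in steady state, close to 7.7% in cluster 5. It was 43.5% (47 of 108) after GM-CSF, against 8.5% in cluster 5. With each cell thinned to 1000 UMIs, the share was 33.3% in cluster 6 and 32.4% in cluster 5 in steady state, and 58.3% and 25.5% after GM-CSF. The deposited scores of steady-state cluster 6 were near 0, with medians of -0.01 for S and -0.03 for G2/M and maxima of 0.10 and 0.11. After GM-CSF the maxima were 0.33 and 0.43. In cluster 8 after GM-CSF the medians were 0.27 and 0.57. No steady-state cell of cluster 6 reached these medians.

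**Figure D2:**
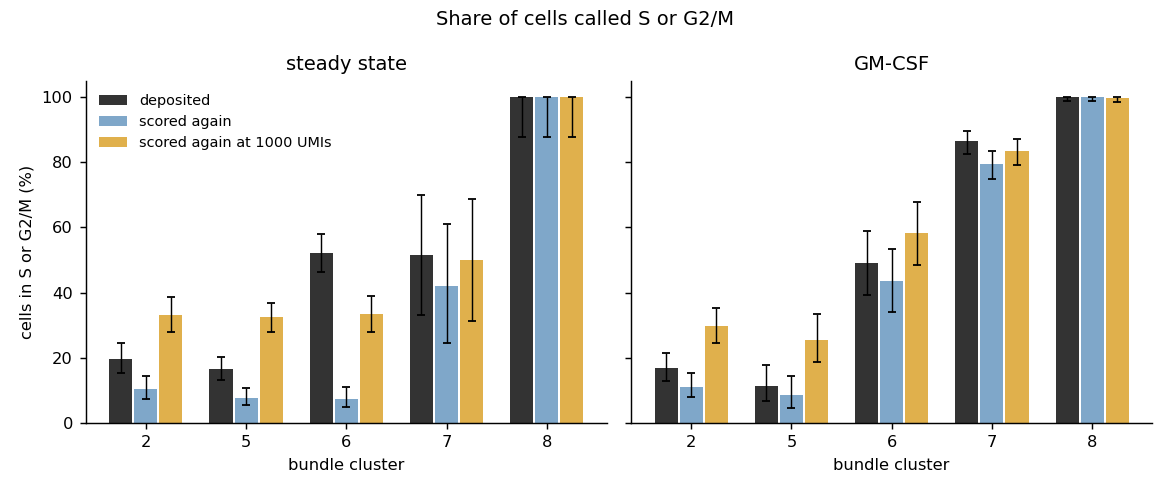
Share of cells called S or G2/M (percent, with exact binomial 95% intervals) in clusters 2, 5, 6, 7 and 8, from the deposited calls, from scoring again, and from scoring at 1000 UMIs per cell. In steady state cluster 6 fell from 52.2% to 7.41% between the first and the next scoring, while after GM-CSF it was 49.1% and 43.5%.

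Genes of proliferation were near the level in B cells in steady state. Mki67, the Ki-67 protein that coats mitotic chromosomes, had 14 UMIs in 12 of 297 cells (4.04%, 2.10 to 6.95%). B cells had a Mki67 UMI in 6 of 196 cells (3.06%, median depth 2976.5 UMIs), and T cells in 0 of 174 (3747 UMIs), which allows a share of up to 1.72%. Top2a, the topoisomerase that untangles replicated DNA, had 7 UMIs in 7 cells. A UMI of either gene was seen in 19 of 297 cells (6.40%), and in 7.75% of cells called G1, 4.08% called S and 7.02% called G2/M. The deposited phase of a steady-state cell did not separate cells by these genes.

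After GM-CSF a minority of cluster 6 cells had a UMI of Mki67 or Top2a. Mki67 had 50 UMIs in 25 of 108 cells (23.1%, 15.6 to 32.2%), at 57.9 CPM against 6.37 CPM in steady state. B cells of the same library had it in 3 of 79 cells. Top2a had 19 UMIs in 14 cells, at 22.0 CPM. Either gene was seen in 34 of 108 cells (31.5%, 22.9 to 41.1%), made up of 20% of G1, 27.3% of S and 70.0% of G2/M cells. The share was 7.09% in cluster 5, 68.9% in cluster 7 and 99.1% in cluster 8. Thinned to 1000 UMIs it was 7.41% in cluster 6 and 83.0% in cluster 8, and in steady-state cluster 6 it was 1.01%. Cluster 6 after GM-CSF thus lay between cluster 5 and clusters 7 and 8.

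The number of cycle genes seen in a cell gave the same order. Of 96 S and G2/M genes in the table, a steady-state cluster 6 cell had a UMI of a median of 9 (quartiles 7 and 10, maximum 17). After GM-CSF the median was 13 (10 and 17.25, maximum 56). None of 297 steady-state cells had more than 20, which allows a share of up to 1.01%, and 19 of 108 cells (17.6%) did after GM-CSF. Cluster 5 had a median of 9 in both libraries, and cluster 8 had 67 in steady state and 59 after GM-CSF. In cluster 7 after GM-CSF 235 of 370 cells (63.5%) had more than 20.

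**Figure D3:**
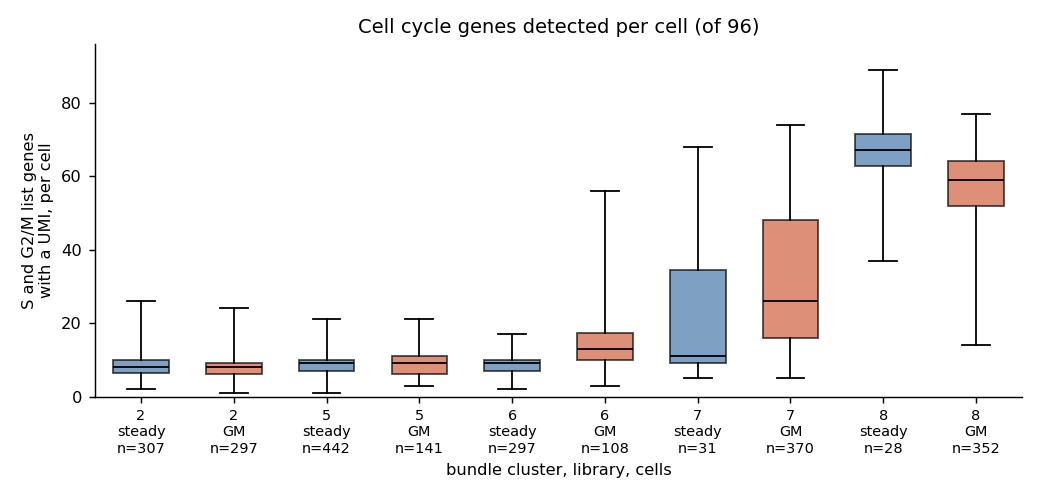
Number of S and G2/M list genes, of 96, with a UMI in each cell of clusters 2, 5, 6, 7 and 8 (box, quartiles and median; whiskers, lowest and highest cell) in steady state and after GM-CSF. Cluster 6 had a median of 9 genes and at most 17 in steady state, and a median of 13 and at most 56 after GM-CSF.

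The make-up of the lists also differed. In steady state 14 of 54 G2/M genes had 0 UMIs in cluster 6, and Hmgb2 with 1191, Tmpo with 861, Hn1 with 393 and Lbr with 374 of 3904 UMIs led the list. Hmgb2 encodes a chromatin protein, and Tmpo and Lbr encode proteins of the inner nuclear membrane. After GM-CSF 2 of 54 had 0 UMIs, and Ube2c with 172, Ccnb2 with 120, Cenpa with 96 and Birc5 with 84 of 2269 UMIs stood among the leading genes beside Hmgb2. In steady state 6 of 42 S phase genes had 0 UMIs, with Rfc2, Slbp and Usp1 leading, and 1 after GM-CSF.

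Within cluster 6, cells called S or G2/M were compared with cells called G1. The calls were made from the cycle genes, so the ratios of these genes are a description. In steady state 11 of 5277 genes (0.208%) were at least 2-fold higher in the S or G2/M cells and 13 (0.246%) lower. The only cycle list gene among them was Casp8ap2, a regulator of histone mRNA, with 63 UMIs against 21 (2.87, 1.73 to 4.96). Hes1, a repressor under Notch control, was 2.22-fold lower and the innate sensor gene Nod1 2.17-fold lower. Both were singled out after their values were seen, as were the genes of the next paragraph.

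After GM-CSF 18 of 2499 genes (0.72%) were at least 2-fold higher and 10 (0.4%) lower in the S or G2/M cells. Of the higher genes 7 were on the G2/M list. Mki67 had 40 UMIs against 10 (4.17, 2.05 to 9.35), and Cenpa, the histone variant of centromeres, 76 against 20 (3.96, 2.39 to 6.84). Birc5, the mitotic survival protein survivin, had 66 against 18 (3.82, 2.24 to 6.84), and Ccnb2, a cyclin of mitosis, 82 against 38 (2.25, 1.51 to 3.40). Hmgb2 had 360 against 112 (3.35, 2.70 to 4.18). Of the lower genes, Serpinb1a had 18 UMIs against 48, Slpi 27 against 65 and Prtn3 26 against 57. The levels of Slpi and Prtn3 rested in part on 6 cells rich in neutrophil genes, described below.

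The G2/M cells after GM-CSF carried most of this. The summed cycle list stood at 2177 CPM in G1, 3399 in S and 6762 in G2/M cells, against 2041, 2206 and 2610 CPM in steady state. Birc5 was at 40.9 CPM in G1, 96.2 in S and 252 CPM in G2/M cells. Stmn1, a regulator of microtubules, was at 125, 150 and 454 CPM. Ube2c, the E2 enzyme that the anaphase-promoting complex uses to mark mitotic proteins, varied less, at 202 CPM in G1, 165.5 in S and 245 CPM in G2/M cells. It was seen in 78.2% of G1 and 85.0% of G2/M cells. H2-Aa and Cd74 were lowest in the 20 G2/M cells, at 178 CPM (395 in G1 and 639 in S) and 706 CPM (1298 and 2009). Over S and G2/M cells together, the MHC class II list was 3063 against 2962 CPM in G1 cells (1.03, 0.957 to 1.12).

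Clusters 7 and 8 had the highest cycle gene numbers of the clusters compared after GM-CSF, and cluster 6 had far less RNA of these genes. Of 8386 genes 275 (3.28%) were at least 2-fold higher in cluster 6 and 947 (11.3%) lower. All 27 spindle and kinetochore genes and 52 of 54 G2/M genes were at least 2-fold lower. Their summed levels were 1632 against 7797 CPM and 2628 against 12551.5 CPM. Classical monocyte markers were higher, 9 of 15 by at least 2-fold, and their summed level was 28420 against 11625 CPM. All 10 MHC class II genes were lower, with a summed level of 3012 against 18194 CPM. Of 10 genes that mark GM-CSF-induced DCs, 9 were lower, with a summed level of 108 against 754 CPM. A gene with few UMIs in cluster 6 passed the minimum only through clusters 7 and 8. The counts of list genes called here are therefore not a measure of the lists.

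GM-CSF was then compared with steady state inside cluster 6. Of 6149 genes 214 (3.48%) were at least 2-fold higher after GM-CSF and 531 (8.64%) at least 2-fold lower. The median gene was lower by 0.15 on the log2 scale. On a scale set by the median of the gene ratios, 314 were higher and 370 lower, so the share of higher among called genes was 28.7% on the first scale and 45.9% on the other. The same contrast gave 230 higher (3.25%) and 478 lower (6.75%) of 7086 genes in cluster 5, 265 (3.82%) and 480 (6.92%) of 6936 in cluster 2, and 903 (8.36%) and 1030 (9.54%) of 10800 in all bundle cells outside cluster 6.

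Of the 15 genes with the highest ratio, 4 were on the G2/M list. Ube2c had 1 UMI in steady state and 172 after GM-CSF, at 199 CPM (ratio 438, 77.6 to 17397), and was seen in 81 of 108 cells (75%, 65.7 to 82.8%). No B cell of 79 had it, which allows a share of up to 3.8%. Neutrophils of that library had it in 19.6% of cells at a median of 4404 UMIs. Cluster 5 had 59 Ube2c UMIs after GM-CSF against 4, in 24.1% of its cells, so that cluster 6 was 3.40-fold above cluster 5 in CPM.

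Ccnb2 had 120 UMIs against 2 (139 against 0.910 CPM; 153, 41.4 to 1276) and was seen in 53 of 108 cells. Birc5 had 84 against 1 (97.3 against 0.455 CPM), in 40 cells. Stmn1 had 168 against 3 (195 against 1.36 CPM; 143, 48.0 to 698), in 63 cells. Cdca3, which helps mitotic entry by driving the loss of an inhibitory kinase, had 60 against 1. The PCNA-binding gene 2810417H13Rik had 69 against 5. Cdca3 was seen in 37 cells, so that each of Ube2c, Ccnb2, Birc5, Stmn1 and Cdca3 was seen in more cells than Mki67.

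The whole gene lists moved less than these leading genes. Of 54 G2/M genes 19 passed the minimum of UMIs, 7 of them were at least 2-fold higher and none lower, with a median log2 of 0.78, and their summed level was 2628 against 1776 CPM (1.48, 1.41 to 1.56). Of 43 S phase genes 11 passed, 3 higher and none lower, with a median of 0.49, at 782 against 423 CPM (1.85, 1.67 to 2.04). Spindle and kinetochore genes gave 4 higher of 6, at 1632 against 306 CPM (5.34, 4.87 to 5.86). In cluster 5 the S list was 451 against 447 CPM and the G2/M list 1392 against 1532 CPM, and in cluster 2 they were 436 against 477 and 1218 against 1532 CPM. The spindle and kinetochore list was higher after GM-CSF in the neighbours too. It was 714 against 323 CPM in cluster 5 (2.21, 2.01 to 2.43) and 718 against 289 CPM in cluster 2 (2.48, 2.26 to 2.73). In all bundle cells outside cluster 6 it was 3125 against 865 CPM (3.61, 3.54 to 3.69). A gene with few UMIs in steady state passed the minimum only through the library where it was high, so these counts are not a measure of the lists. Without the 4 cells of the other parent cluster, Mki67 fell from 57.9 to 31.7 CPM and Birc5 from 97.3 to 79.3 CPM, while Ube2c stood at 195 and Stmn1 at 171 CPM. The parent cluster of these 4 cells also held 351 of 352 cluster 8 cells and 222 of 370 cluster 7 cells after GM-CSF.

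The promoters of the 4 G2/M genes with the highest ratios are shown, as 300 bases from 250 before to 50 after the start, in the direction of the gene, from RefSeq on GRCm38.p6. Capitals mark each match, on either strand, to TTTGAA, the core of the cell cycle homology region bound by the DREAM repressor complex of resting cells, and to CCAAT, the box bound by the factor NF-Y. The windows are chr2:164769679-164769978 on the plus strand for Ube2c, chr11:117848987-117849286 on the plus strand for Birc5, chr9:70421505-70421804 on the minus strand for Ccnb2 and chr6:124829926-124830225 on the plus strand for Cdca3.
Ube2c: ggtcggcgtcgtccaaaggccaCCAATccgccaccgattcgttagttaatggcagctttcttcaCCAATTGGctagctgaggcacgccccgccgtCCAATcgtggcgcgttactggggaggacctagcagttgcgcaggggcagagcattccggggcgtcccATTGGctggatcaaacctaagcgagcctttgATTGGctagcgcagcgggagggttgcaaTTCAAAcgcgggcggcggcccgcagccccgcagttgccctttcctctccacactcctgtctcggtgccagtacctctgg
Birc5: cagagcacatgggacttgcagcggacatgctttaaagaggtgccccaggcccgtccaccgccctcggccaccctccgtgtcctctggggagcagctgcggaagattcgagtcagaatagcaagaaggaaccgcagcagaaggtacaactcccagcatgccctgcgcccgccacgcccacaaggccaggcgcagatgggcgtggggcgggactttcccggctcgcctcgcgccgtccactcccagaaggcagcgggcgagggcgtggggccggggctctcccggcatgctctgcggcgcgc
Ccnb2: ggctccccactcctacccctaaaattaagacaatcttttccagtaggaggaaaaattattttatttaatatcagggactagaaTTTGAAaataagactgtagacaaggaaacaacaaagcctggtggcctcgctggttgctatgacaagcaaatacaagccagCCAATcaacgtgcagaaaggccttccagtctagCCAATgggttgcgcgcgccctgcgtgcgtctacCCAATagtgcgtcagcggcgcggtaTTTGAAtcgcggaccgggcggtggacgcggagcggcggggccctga
Cdca3: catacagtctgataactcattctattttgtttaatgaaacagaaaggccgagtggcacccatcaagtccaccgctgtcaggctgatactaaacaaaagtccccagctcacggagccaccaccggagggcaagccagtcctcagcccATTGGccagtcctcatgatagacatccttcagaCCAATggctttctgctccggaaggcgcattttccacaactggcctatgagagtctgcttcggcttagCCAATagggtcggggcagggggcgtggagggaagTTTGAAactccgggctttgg

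Ube2c had 1 TTTGAA match, 29 bases before the start and on the opposite strand, and 6 CCAAT matches of which a pair overlapped. Ccnb2 had 2 TTTGAA and 3 CCAAT matches, Cdca3 had 1 and 3, and Birc5 had neither in this window. Of the 54 G2/M genes 46 had a promoter in the RefSeq table, and TTTGAA was found in 33 of them (71.7%), against 20.2% of all 27025 genes. CCAAT was found in 35 (76.1%), against 41.1% of all. The E2F-like TTTCGCGC and TTTGGCGC were each found in 1 of the 46 (2.17%), against 0.374% and 0.585%. Only 30 of 43 S phase genes had a promoter in the table, so no share is given for them. A match is a description of the letters and not of binding.

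Antigen presentation genes were higher after GM-CSF in cluster 6, though they stayed below the neighbouring clusters. H2-Aa had 369 UMIs against 23 (427 against 10.5 CPM; 40.9, 26.8 to 65.3) and was seen in 51 of 108 cells against 21 of 297. H2-Eb1 had 227 against 10 (57.8, 30.9 to 122). Cd74 was 1400 against 121 CPM, an 11.5-fold difference, and H2-Ab1 480 against 20.5 CPM. Of 10 MHC class II genes 6 passed the minimum and 5 were at least 2-fold higher, against 3.48% of all genes. H2-Aa, H2-Eb1 and H2-Ab1 passed only through the library where they were high, so this count is not a measure of the list. The summed level of the 10 genes was 3012 against 462 CPM (6.52, 6.06 to 7.02). In cluster 5 the sum was 11859 against 987 CPM and in cluster 2 16564 against 6905 CPM.

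Spint1, Htra3 and Cd9 were also among the 15 highest genes. Spint1, an inhibitor of serine proteases on the cell surface, had 0 UMIs in 297 steady-state cells, and 88 UMIs in 59 of 108 cells after GM-CSF (102 CPM, at least 74.7-fold). Cluster 5 had 140 against 1 and cluster 2 263 against 14, so Spint1 was not particular to cluster 6. Htra3, a secreted serine protease, had 56 UMIs against 0 (at least 47.5-fold), and 120 against 1 in cluster 5. Cd9, a tetraspanin, had 108 against 3 (125 against 1.36 CPM). Ear2, an eosinophil-associated ribonuclease on the list of non-classical monocyte genes, was 270 against 34.1 CPM.

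The neutrophil genes S100a8, S100a9, Lcn2 and Wfdc21 were among the 15 highest genes as well, but for all of them a few cells held most UMIs or a large part. S100a9 had 1604 UMIs against 140, S100a8 1247 against 125, Lcn2 461 against 37 and Wfdc21 156 against 5. In 6 of 108 cells the 14 genes of the neutrophil list made up more than 1% of UMIs, up to 8.21%, against a median of 0.05% over the cluster, and these cells held 83.5% of the list's UMIs. Scrublet called 1 of the 6 a doublet. Without them S100a9 went from 1858 to 107.5 CPM, S100a8 from 1444 to 167.5 CPM, Lcn2 from 534 to 167.5 CPM and Wfdc21 from 181 to 120 CPM. The summed list was 587 CPM in steady state and 4227 CPM after GM-CSF, or 752.5 CPM without the 6 cells. Among defining neutrophil markers after GM-CSF, Camp had 18 UMIs, Ngp 12, Ltf 9, Retnlg 9 and Ly6g 3. The part of neutrophil RNA in the levels of these genes, Slpi and Prtn3 was not tested.

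B, T, NK and erythroid cells left little RNA in cluster 6. The summed B cell list was 19.6 CPM in steady state and 3.47 CPM after GM-CSF, and the T cell list 1.36 and 0 CPM. The NK cell list was 15.5 and 2.32 CPM, and the erythroid list 10.5 and 1.16 CPM. The macrophage list was 365 and 328 CPM, near the 353 and 299 CPM of the other bundle cells. The DC list was 86.9 and 31.3 CPM. The list of 16 marrow progenitor genes summed to 402 CPM in steady state and 795 CPM after GM-CSF (1.98-fold, 1.79 to 2.19), against 544 and 452 CPM in cluster 5. Calr, a chaperone that most cells make, held 677 UMIs in steady state and 432 after GM-CSF. Defining progenitor markers were low. Kit had 0 UMIs in both libraries, Elane 0 in steady state and 9 after GM-CSF, Mpo 1 in each, Ctsg 2 in each and Cd34 1 and 0.

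Of the lower genes, 1 group was those induced within minutes of a stimulus or of stress. In the list of 15 such genes all passed the minimum, 13 were at least 2-fold lower after GM-CSF and none higher, with a median log2 of -3.25. Their summed level was 1199 against 7234 CPM (6.03-fold lower, 5.67 to 6.43). Fos was 126 against 1460 CPM (11.6-fold lower, 9.55 to 14.1) and was seen in 50 of 108 cells against 264 of 297. Jun was 40.5 against 494 CPM (12.2-fold lower), Dusp1, a phosphatase of MAP kinases, 83.4 against 927 CPM, and Egr1 had 1 UMI against 84. The heat shock genes Hspa1b and Hspa1a had 0 UMIs against 460 (at least 60.2-fold lower) and 1 against 687. Egr1, Hspa1a and Hspa1b passed the minimum only through the steady-state library, so the count of 13 is not a measure of the list. Hspa1a and Hspa1b are near-identical copies between which reads can be split. The neighbours were lower too, the list being 2337 against 8424 CPM in cluster 5 and 2041 against 7561 CPM in cluster 2.

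Classical monocyte genes were lower after GM-CSF. Of 17 above the minimum 12 were at least 2-fold lower and none higher, with a median log2 of -1.14, and the summed level was 28420 against 56638 CPM (1.99-fold lower, 1.97 to 2.02). Thbs1 had 8 UMIs against 784. Cd177, a surface protein of neutrophils and some monocytes, had 7 against 372. Thbs1 and Cd177 passed the minimum only through the steady-state library, so the count of 12 is not a measure of the list. Chil3 was 1916 against 4209 CPM, F13a1 217 against 1228 CPM and Ms4a4c 115 against 599 CPM. Vcan stood apart from them at 383 against 247 CPM, and was seen in 80.6% of cells against 58.2%. Clusters 5 and 2 each had 12 of 17 of these genes at least 2-fold lower.

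Several other genes were far lower after GM-CSF. Apoe, the lipid carrier, had 18 UMIs against 3083 (20.9 against 1402 CPM; 67.3-fold lower, 42.5 to 114). It also had 11 against 5201 in cluster 5. Flt3, the receptor of a DC growth factor, had 0 against 55 (at least 7.20-fold lower). The chemokine genes Ccl2 and Cxcl2 had 1 UMI against 106 and 7 against 390. Rnf144a, Tmem176a, Gm1673 and Ccrl2 were the other genes of the 15 lowest, between 12.2-fold lower for Ccrl2 and 17.3-fold for Tmem176a, with 1 UMI against 64 for Rnf144a.

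**Figure D4:**
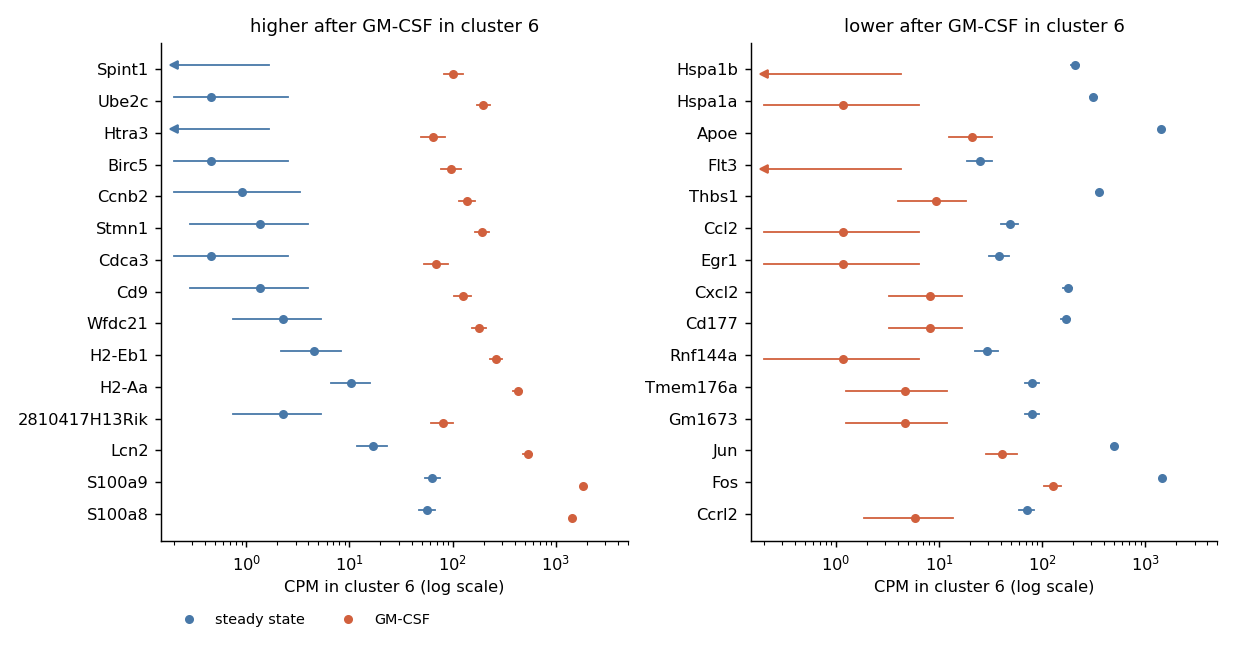
Levels in cluster 6 (CPM, log axis, exact 95% Poisson intervals) in steady state and after GM-CSF for the 15 genes with the highest and the 15 with the lowest ratio, an arrow standing for 0 UMIs. Ube2c went from 0.455 to 199 CPM and Apoe from 1402 to 20.9 CPM. The genes were chosen by this ratio, so that the intervals of the libraries did not overlap for any gene shown follows largely from the choice.

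In the remaining gene lists fewer genes were called, to be read against 3.48% of all genes at least 2-fold higher and 8.64% lower. Of 16 monocyte transcription factors above the minimum 6 were at least 2-fold lower and none higher, among them Fos, Jun and Egr1 from the immediate early list. Irf8, which promotes monocyte over granulocyte fate, was 232 against 422 CPM, and Spi1 (PU.1) 486 against 503 CPM. Of 11 interferon response genes 6 were lower and none higher, and Irf7 was 46.3 against 126 CPM. Of 14 homing and adhesion genes 5 were lower and none higher, with Cx3cr1, a chemokine receptor, at 69.5 against 328 CPM. Of 9 receptors of colony-stimulating and related factors 5 were lower, and Csf1r was 164 against 455 CPM and Csf3r 59.1 against 205 CPM. The GM-CSF receptor chains were nearer to their steady-state level, Csf2ra at 139 against 242 CPM and Csf2rb at 154 against 161 CPM. Of 11 cell cycle inhibitors and quiescence genes 3 were lower, Btg1 being 401 against 1024 CPM. Of 21 phagocyte effector genes 3 were higher and 5 lower, and of 10 non-classical monocyte genes 3 higher and 3 lower. Of 10 GM-CSF signalling genes and 11 apoptosis genes 1 was higher and 1 lower each. A count of 1 in lists of this size is no result about the list.

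In the lists of growth few genes were called, against 3.48% of all genes at least 2-fold higher. Of 15 glycolysis genes 2 were at least 2-fold higher and none lower, and the sum was 4604 against 2695 CPM, with Gapdh at 1484 against 645 CPM and Aldoa at 632 against 302 CPM. Of 12 translation and growth genes only Ran was at least 2-fold higher and none lower. Ran, the GTPase of nuclear transport, was 397 against 131 CPM, and Npm1, a nucleolar protein, was 915 against 532 CPM. Tubb5, a tubulin chain, was 843 against 122 CPM. Replication genes gave 2 higher of 4 and a sum of 573 against 196 CPM. Cyclins and their kinases gave 1 higher of 7 and histones 1 of 5, with none lower in either.

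The shares of genes were near each other within phases. In G1 cells of cluster 6, 142 of 4176 genes (3.4%) were at least 2-fold higher after GM-CSF and 427 (10.2%) lower. In S and G2/M cells they were 169 (3.95%) and 437 (10.2%) of 4277. Restricted to G1 cells, 25 of 6819 genes (0.367%) were at least 2-fold higher in cluster 6 than in cluster 5 in steady state and 127 (1.86%) lower, and after GM-CSF 37 of 3691 (1.0%) were higher and 107 (2.9%) lower. Against cluster 2 the G1 cells had 132 of 6002 genes (2.2%) higher and 194 (3.23%) lower in steady state, and 138 of 4996 (2.76%) higher and 285 (5.7%) lower after GM-CSF. Whether the genes were the same as over all cells was not compared.

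The surface tags were not used to draw the RNA clusters, though they come from the same droplets. The Ly6C tag had a median count of 1272 per cell in steady-state cluster 6 (quartiles 933 and 1649), second of 14 clusters to cluster 13 at 1311, against 939 in cluster 5 and 713 in cluster 2. After GM-CSF it was 262.5 (144 and 587.75), the highest of 14, against 78 in cluster 5 and 77 in cluster 2. Protein and RNA thus ranked cluster 6 alike in each library. The median total of all 5 tags per cell was 1307 in steady state and 388 after GM-CSF. Ly6C differed little between phases, with medians of 1274, 1267 and 1265 in G1, S and G2/M cells in steady state and 272, 279 and 227 after GM-CSF.

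MHC II and, after GM-CSF, CD11c were low in cluster 6. MHC II had a median of 6 counts in steady state and 22 after GM-CSF, the lowest of 14 clusters both times, against 84 in cluster 5 and 100 in cluster 2 after GM-CSF. CD11c, an integrin of DCs, was 3 and 25, the latter lowest of 14. CD115, the receptor of M-CSF encoded by Csf1r, was 5 in steady state, at rank 4 of 14 clusters, and 22.5 after GM-CSF, at rank 12 of 14, against 4 and 41 in cluster 5. CD301b, a lectin of DCs and macrophages, was 7 in steady state, at rank 2 of 14, against 6 in cluster 5 and 5 in cluster 2, and 12 after GM-CSF, against 9 and 10. These ranks depended on the tag scale. By the median share of a cell's tag counts, cluster 6 ranked 7 of 14 for CD301b in steady state. For CD115 it ranked 9 in steady state and 7 after GM-CSF, and for MHC II 13 and 14. The low MHC II tag stood beside low MHC class II RNA in cluster 6.

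**Figure D5:**
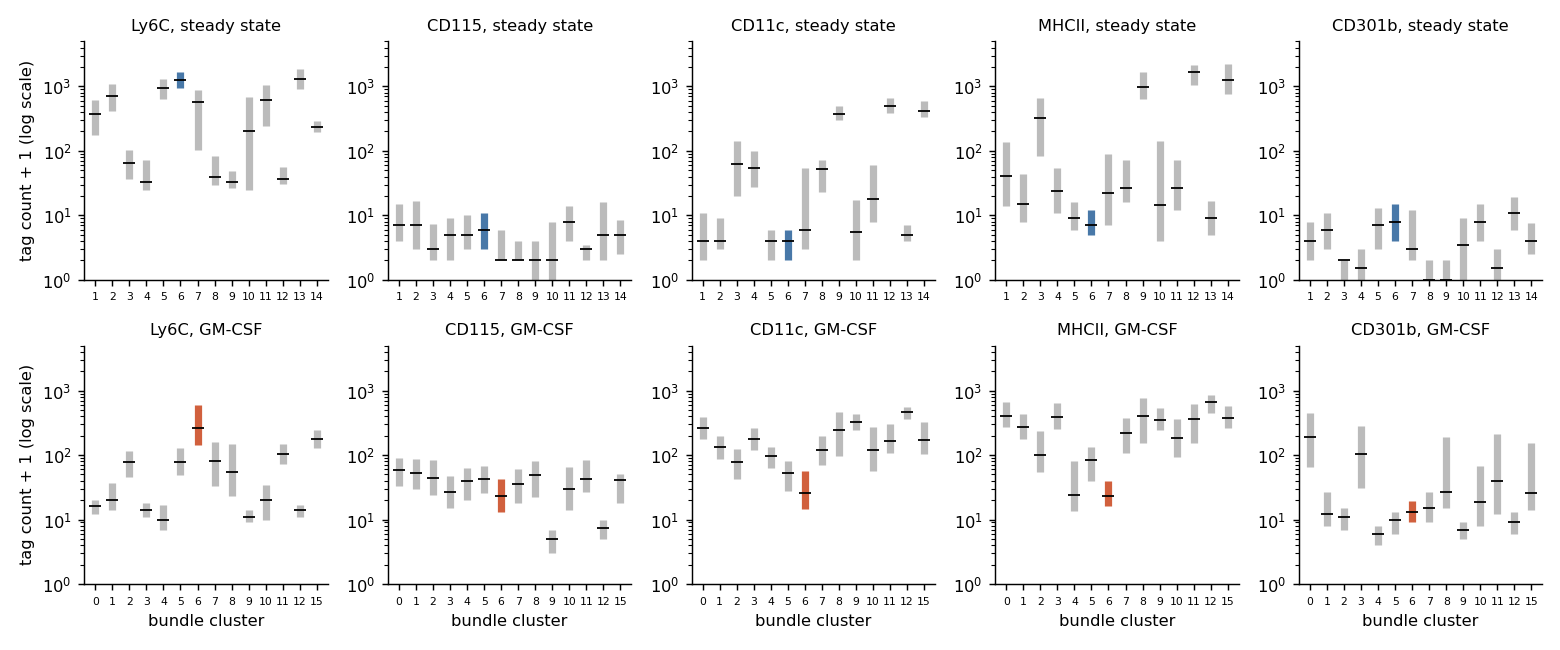
Counts of the 5 surface tags per cell (count plus 1, log axis) in each bundle cluster with at least 20 cells, as medians (ticks) and quartiles (bars), with cluster 6 coloured, in steady state and after GM-CSF. For Ly6C cluster 6 had a median count of 1272 in steady state and 262.5 after GM-CSF, and for MHC II 6 and 22, the lowest of the clusters.

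The authors had gated CD115hi cells by their tags into subsets from P-I, the Ly6C-high monocytes, to P-IV, the GM-CSF-induced DCs. In cluster 6 26 of 297 steady-state cells (8.75%, 5.80 to 12.6%) and 8 of 108 after GM-CSF (7.41%, 3.25 to 14.1%) were P-I. Neither library had a cluster 6 cell in P-II, P-III or P-IV, which allows a share of up to 1.01% of steady-state cells and 2.78% of cells after GM-CSF for each. Below the CD115hi gate were 269 (90.6%) and 100 (92.6%) cells. The share of P-I was 6.79% and 10.6% in cluster 5 and 14.3% and 17.8% in cluster 2. Cluster 6 gave 18.7% of the 139 P-I cells of the steady-state library and 4.28% of the 187 after GM-CSF.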

How the data were processed

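RNA and antibody tags of 1 steady-state and 1 GM-CSF library were measured by CITE-seq. The authors made the deposited raw counts, UMIs per gene and counts per tag, with CITE-seq-Count and with Cell Ranger on mm10. Their filter required 200 to 5000 genes and a mitochondrial share of at most 15%, after which the libraries were integrated and clustered in Seurat. The deposited mitochondrial percent, the deposited score for each phase, which has no unit, and the phase, cluster and CD115hi labels come from the authors. Doublet removal is not given in the sources used here. Doublets were called with Scrublet in scanpy per library (152 of 4827 cells, 3.15%, and 186 of 6804, 2.73%) and kept.

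Raw counts were summed per cluster and library and divided by the total. Levels carry exact Poisson, ratios exact binomial and shares exact Clopper-Pearson 95% intervals. The ratio rule (2-fold, at least 50 UMIs in the pair of sums, 0.5 counts added) and the intervals were tested on simulated data. A gene at 0 UMIs was bounded by 3 counts. Thinning drew 1000 UMIs per cell (seed 20) and left out shallower cells. Phases were scored again in scanpy.

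Named are genes that describe a fixed list, the 15 genes highest against the other bundle cells, the 10 highest and lowest against clusters 5 and 2 by the ratio nearer to 1 of both libraries, and the 15 highest and lowest of GM-CSF over steady state. Cluster, lists and tests were chosen with earlier results of these data known. Iglc2, Trac, Trbc1, Trbc2, Mlf1ip and Cebpd were not among the 27998 genes of the table. Alternatives covered doublets, a mitochondrial limit of 10%, the minimum of UMIs (20 and 200), the added counts (0.1 and 1), depth, scale, cell weighting, phase and tag scale. Python 3.11.15, numpy 2.4.6, scipy 1.17.1, pandas 2.3.3, scanpy 1.11.5, anndata 0.12.19, scikit-learn 1.9.0 and, for the figures, matplotlib 3.10.9 were used. Coordinates come from GENCODE and promoters from RefSeq, both on GRCm38. Some genes of the lists are not reported here by name.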

Additional observations from a re-analysis of the deposited data

How the results depend on the processing

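No paired analysis was possible because each condition had 1 library. No gene count or named ratio turned its direction, but the comparison of S or G2/M shares depended on the scoring. By the deposited calls the steady-state share of cluster 6 was near that after GM-CSF (52.2% against 49.1%) and above cluster 5 (16.5%). Scored again it was below that after GM-CSF (7.41% against 43.5%) and near cluster 5 (7.69%). The cause was not tested. Of all CD11b+ cells, cluster 6 was 6.15% in steady state and 1.59% after GM-CSF. The steady-state share in S or G2/M was 7.41% when scored again and 33.3% at 1000 UMIs, where the deposited calls gave 52.2%. Counts of genes depend on the minimum of UMIs by construction, since it sets how many genes are tested. With at least 20 UMIs, 217 genes were higher against the other bundle cells in steady state and 735 after GM-CSF, 111 higher and 220 lower against cluster 5 in steady state (33.5% higher against 17.2% at 50 UMIs) and 161 and 309 after GM-CSF, 306 higher against cluster 2 in steady state and 350 and 520 higher and lower after GM-CSF, and 436 and 808 in GM-CSF over steady state. With at least 200 UMIs, the higher and lower genes were 73 and 412 against the other bundle cells in steady state and 214 and 923 after GM-CSF, 5 and 41 against cluster 5 in steady state and 18 and 23 after GM-CSF, 77 and 108 against cluster 2 in steady state and 51 and 82 after GM-CSF, and 70 and 216 in GM-CSF over steady state. Thinned to 1000 UMIs per cell, 431 genes were lower against the other bundle cells in steady state, and higher and lower were 18 and 53 against cluster 5 in steady state and 13 and 24 after GM-CSF, 53 and 80 against cluster 2 in steady state and 43 and 59 after GM-CSF, and 54 and 146 in GM-CSF over steady state. In G1 cells, 37 genes were higher against cluster 5 after GM-CSF and 142 in GM-CSF over steady state, and fewer cells were summed. The remaining 140 values of these results stayed within 1.5 times of the reported count or within its interval. For named genes and lists 282 values did so and 38 moved. Chosen after seeing the data, leaving out the 6 cells rich in neutrophil genes gave 227 higher and 521 lower genes in GM-CSF over steady state, and leaving out the 4 cells of the other parent cluster gave 210 and 524. Mki67 had 14 UMIs over 297 steady-state cells, and the share of cells with such a UMI was near that of B cells. The part of depth in this was not tested.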
